A study of Mus musculus with 8 samples.

Results

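The 54 translation initiation factor genes of the mouse were examined in 4T1 cells, a triple-negative mammary tumor line of BALB/c origin, out of 54532 genes listed in the count tables, 21918 of them protein-coding. Members were all protein-coding genes whose symbol begins with Eif and a digit, with Eif2d left out, and their symbols were matched to the Ensembl identifiers of the tables. The cells stably carried a scramble shRNA or an shRNA against MCT-1 (shMCT-1), and both lines were kept under puromycin. For 48 h each line received control IgG or anti-IL-6R, an antibody against the IL-6 receptor, at 100 ng/ml. The resulting 4 groups (scramble + IgG and shMCT-1 + IgG, scramble + anti-IL-6R and shMCT-1 + anti-IL-6R) had 2 biological replicate libraries each. The shMCT-1 cells carry 1 shRNA sequence, so the silencing and other differences between the 2 lines cannot be told apart.

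Translation initiation loads a ribosome onto an mRNA. A ternary complex of eIF2, GTP and initiator tRNA joins the small ribosomal subunit together with eIF1, eIF1A, eIF3 and eIF5. The eIF4 factors bind the cap and unwind the leader, and eIF5B brings in the large subunit once the start codon is found. The guanine nucleotide exchange factor eIF2B recycles eIF2, and the pathway is throttled at the level of eIF2 and of eIF4E, by kinases that phosphorylate the alpha subunit of eIF2 and by eIF4E-binding proteins that keep eIF4E from eIF4G. MCT-1, the silenced protein, itself acts on the small subunit, where it takes part in reinitiation and ribosome recycling together with its partner DENR.

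Poly(A)-selected RNA had been sequenced, and expression is given here as normalised CPM, counts per unit of library size after scaling by TMM factors. Library totals ran from 19839255 to 33063535 counts, each shMCT-1 library being smaller than each scramble library, and the lowest count of any tested member was 197. Mcts1, the silenced gene, stood at 11.8 to 15.0 normalised CPM in scramble and 4.99 to 6.88 in shMCT-1, with a log2 fold change of -1.10 (standard error 0.12, edgeR adjusted p = 1.13e-05). Of the markers of mammary carcinoma cells, Krt8 was at 1031 to 1098 normalised CPM in scramble and 1276 to 1466 in shMCT-1, and 5 of 6 were called higher in shMCT-1, Epcam among them at 3.67 to 4.85 normalised CPM in scramble and 50.2 to 55.3 in shMCT-1. The leukocyte markers Ptprc and Cd3e had at most 3 counts in any library, as did the fibroblast markers Dcn and Col3a1. Summed levels of the 3 leukocyte markers, nearly all of it Cd68, were 2.71 to 3.44 normalised CPM in scramble and 5.55 to 7.70 in shMCT-1, those of 2 endothelial markers were 0.0945 to 0.290 and 0.517 to 1.80, and those of 3 fibroblast markers, nearly all of it Pdgfra, were 14.4 to 16.5 and 11.2 to 15.2. In bulk RNA, a different number of cells of a type and a different amount of RNA per cell cannot be told apart. The part of these differences in the results on initiation factors was not tested.

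Silencing of MCT-1 went with a change in most initiation factor genes, and the changes ran in both directions. Of the 54 genes, 50 exceeded 1 CPM in 2 or more libraries and were tested. With both treatments combined, 28 of the 50 were called higher and 10 lower in shMCT-1 at an adjusted p under 0.05 in edgeR's quasi-likelihood test, and 12 were not called. Among all 12704 tested genes 69% were called, 35% higher and 34% lower, so the share of members called, 76%, is near that of all genes. The split was 56% higher and 20% lower for the members, with a median log2 fold change of 0.20 against 0.01 over all tested genes. Within IgG alone 20 members were higher and 9 lower (28.3% and 26.2% of all genes, 54.4% together), and within anti-IL-6R 22 were higher and 7 lower (26.9% and 27.3%, 54.3% together). In 25 members both comparisons called the same direction (50%, against 46.3% of all genes), 18 higher and 7 lower (23.6% and 22.7% of all genes). Counts within a treatment changed when 1 library was left out, a fit that leaves 1 library in a group and fewer degrees of freedom. The share of all genes called in these fits is not given here. Within IgG 10 members were higher without either replicate of shMCT-1 + IgG, and within anti-IL-6R 14 were higher without replicate 1 of scramble + anti-IL-6R, 8 were higher and 2 lower without its replicate 2, and 3 were lower without replicate 1 of shMCT-1 + anti-IL-6R.

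The lines were also separated library by library. In 28 members each of the 4 shMCT-1 libraries lay above each scramble library, and in 8 each lay below (33% and 31.4% of all tested genes), in all 72% of the members against 64.4% of all genes. Fold changes were modest, from 1.85-fold higher (Eif1b) to 0.553 of the scramble level (Eif3j1). All members together took 1.75% to 1.82% of the counts in the scramble libraries and 1.86% to 1.95% in the shMCT-1 libraries. Replicates of a group differed by a median absolute log2 value of 0.043 to 0.134 over the members, the largest spread being that of scramble + IgG. Its replicate 2 stood apart, with a spread of 0.186 (SD of the log2 deviation from the median of its line over 50 members) where the other 7 libraries had 0.027 to 0.113. Without it 28 members were higher and 9 lower.

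**Figure D1:**
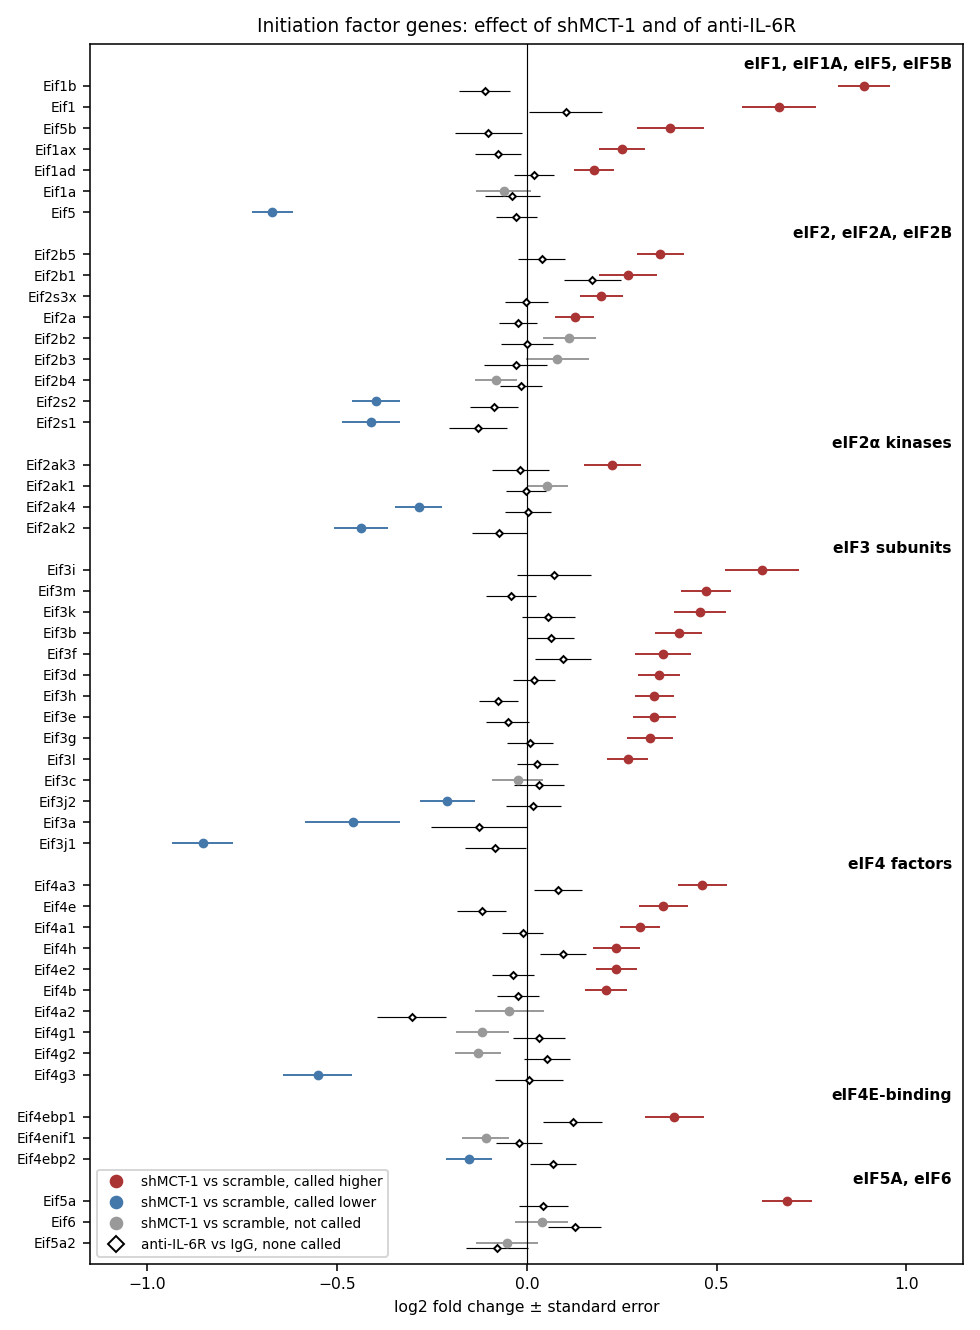
Log2 fold change ± standard error of the 50 tested members, in 7 groups by role, assigned from the gene symbol. Filled circles compare shMCT-1 with scramble across both treatments, 28 called higher (red), 10 called lower (blue) and 12 not called (grey), and open diamonds compare anti-IL-6R with IgG across both lines, none of them called.

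Among the factors that choose the start codon, genes moved in opposite directions. Eif1 and Eif1b, which encode the scanning factor eIF1 and its close relative, rose, and Eif5, which encodes the GTPase-activating protein of eIF2 and counters eIF1 at the start codon, fell. The group of 7 genes was drawn by symbol and also holds Eif5b, of subunit joining, and Eif1ad, a gene with an eIF1A domain. Of the 7 genes 5 were called higher and 1 lower, where 69% of all tested genes were called, 35% higher and 34% lower. Eif1b (chromosome 9, 120492232 to 120495330, plus strand, GRCm38) was measured at 24.2 and 28.1 normalised CPM in scramble + IgG, 24.9 and 22.5 in scramble + anti-IL-6R, 47.5 and 47.3 in shMCT-1 + IgG, and 46.5 and 43.0 in shMCT-1 + anti-IL-6R. The shMCT-1 libraries thus held close to double the scramble level with no overlap, and the log2 fold change of Eif1b was 0.89 (standard error 0.068, edgeR adjusted p = 1.22e-06), the highest of all members. Eif1 (chromosome 11, 100319885 to 100322096, plus strand) was measured at 377 and 266 normalised CPM in scramble + IgG, 365 and 346 in scramble + anti-IL-6R, 528 and 522 in shMCT-1 + IgG, and 582 and 512 in shMCT-1 + anti-IL-6R. Replicate 2 of scramble + IgG was the lowest library, and the log2 fold change of Eif1 was 0.66 (standard error 0.10, edgeR adjusted p = 0.000119), or 0.56 (edgeR adjusted p = 2.76e-05) without that library.

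Eif5 (chromosome 12, 111538016 to 111546752, plus strand) was measured at 773 and 772 normalised CPM in scramble + IgG, 761 and 766 in scramble + anti-IL-6R, 473 and 505 in shMCT-1 + IgG, and 458 and 493 in shMCT-1 + anti-IL-6R. The 4 scramble libraries were close to each other and far above the shMCT-1 libraries, and the log2 fold change was -0.67 (standard error 0.054, edgeR adjusted p = 1.77e-06). The tested genes of chromosome 12, where Eif5 lies, were lower in shMCT-1 by a median log2 value of -0.35, and with the median of its chromosome taken off, Eif5 kept a value of -0.32 (edgeR adjusted p = 0.000369). Eif5b, the GTPase of subunit joining, was at 252 to 339 normalised CPM in scramble and 344 to 378 in shMCT-1, with a log2 fold change of 0.38 (standard error 0.088, edgeR adjusted p = 0.00279). Part of its exons, 1643 bases, lies opposite exons of Rev1, and whether the counting used strand is not given in the sources used here. Its chromosome 1 was higher by a median of 0.21, and without that median the value of Eif5b was 0.17 (edgeR adjusted p = 0.11). Eif1ax, the X-linked copy of eIF1A, was at 177 to 181 normalised CPM in scramble and 196 to 237 in shMCT-1, with a log2 fold change of 0.25 (standard error 0.061, edgeR adjusted p = 0.0036). Eif1a, the copy on chromosome 18, was not called, at -0.060 (edgeR adjusted p = 0.477), and was called higher with a correction for transcript length and GC content, at 0.26 (edgeR adjusted p = 0.0085). Eif1ad, a gene with an eIF1A domain, was called higher by 0.18 on the log2 scale, and 428 bases of its exons overlap Banf1 on the other strand.

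**Figure D2:**
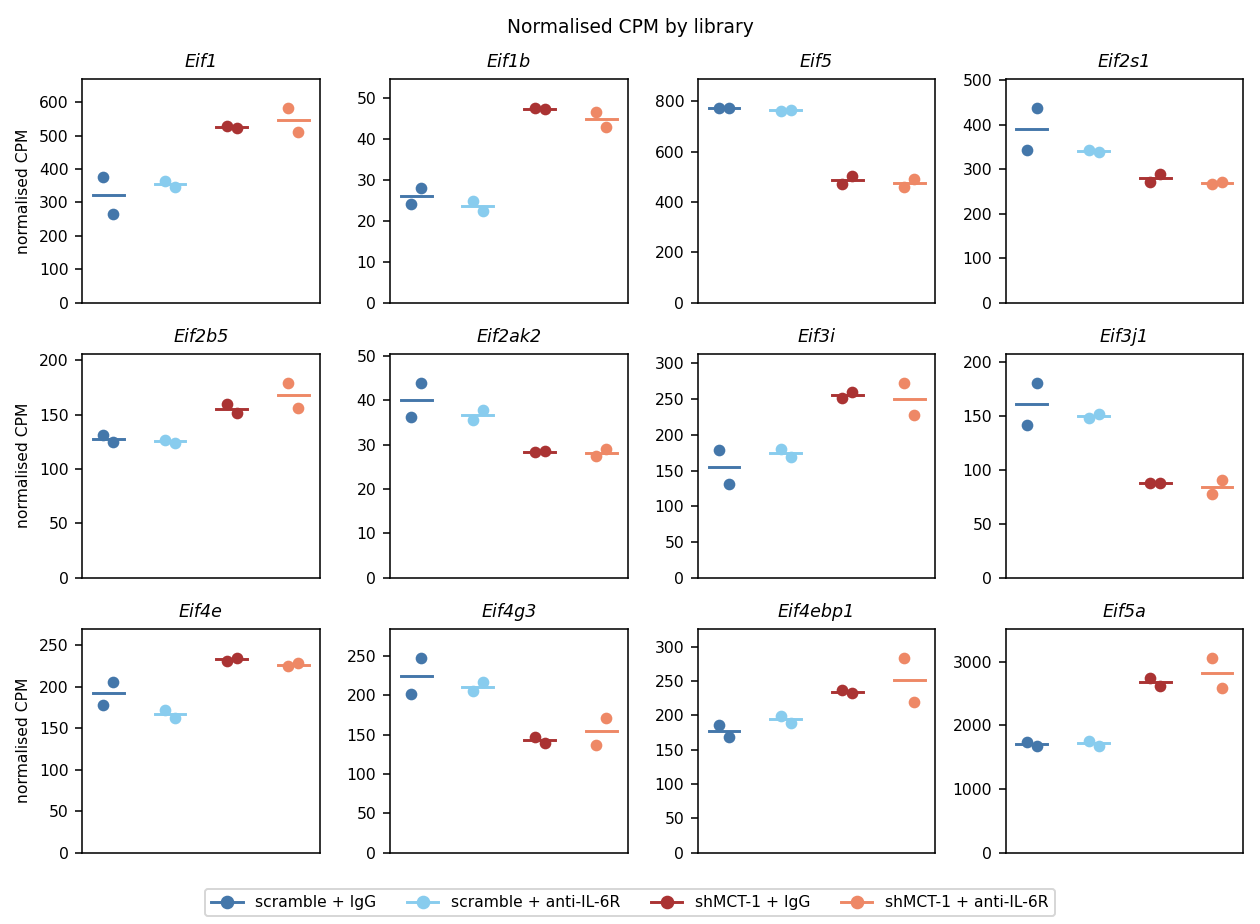
Normalised CPM of 12 members in the 8 libraries, with the vertical axis from 0. Points are libraries and bars the mean of a group of 2, and in each panel the 4 shMCT-1 libraries lie all above or all below the 4 scramble libraries.

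The 3 subunits of eIF2 did not move as one. Eif2s1, which encodes the alpha subunit that the stress kinases phosphorylate, was measured at 343 and 437 normalised CPM in scramble + IgG, 342 and 339 in scramble + anti-IL-6R, 271 and 289.8 in shMCT-1 + IgG, and 266 and 271 in shMCT-1 + anti-IL-6R. It was lower in every shMCT-1 library, with a log2 fold change of -0.41 (standard error 0.076, edgeR adjusted p = 0.000657). Eif2s2, the beta subunit, was at 362 to 433 normalised CPM in scramble and 279 to 299 in shMCT-1, with a log2 fold change of -0.40 (standard error 0.063, edgeR adjusted p = 0.000216). Eif2s3x, the gamma subunit, was instead higher, at 372 to 407 normalised CPM in scramble and 426 to 462 in shMCT-1, by 0.20 (standard error 0.057, edgeR adjusted p = 0.00976). The first 2 genes lie on chromosomes 12 and 2, whose tested genes were lower in shMCT-1 by medians of -0.35 and -0.37. Relative to the median of their chromosome, the log2 values of Eif2s1 and Eif2s2 were -0.057 (edgeR adjusted p = 0.53) and -0.028 (edgeR adjusted p = 0.709), and neither was called. The value of Eif2s3x was 0.20 (edgeR adjusted p = 0.00899) under the same offset.

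Of the 5 subunits of eIF2B, the exchange factor that recharges eIF2 with GTP, Eif2b5 and Eif2b1 were called higher and the other 3 were not called. Eif2b5, which encodes the catalytic epsilon subunit, was measured at 131 and 125 normalised CPM in scramble + IgG, 127 and 124 in scramble + anti-IL-6R, 159.7 and 152 in shMCT-1 + IgG, and 179 and 156 in shMCT-1 + anti-IL-6R. All its shMCT-1 libraries lay above the scramble libraries, and the log2 fold change was 0.35 (standard error 0.062, edgeR adjusted p = 0.000448). Eif2b1, the alpha subunit, was at 42.1 to 48.5 normalised CPM in scramble and 48.6 to 65.8 in shMCT-1, with a log2 fold change of 0.27 (standard error 0.076, edgeR adjusted p = 0.00899). Log2 values were 0.11 for Eif2b2, 0.080 for Eif2b3 and -0.081 for Eif2b4, with edgeR adjusted p of 0.171, 0.408 and 0.212. Eif2b2 shares chromosome 12 with Eif2s1 and Eif5, and relative to that chromosome's median it was called higher, at 0.47 (edgeR adjusted p = 0.000156), while with a correction for transcript length and GC content its value was -0.16 (edgeR adjusted p = 0.0653). Under the latter correction Eif2b4 was called lower, at -0.32 (edgeR adjusted p = 0.000413). Eif2a, an initiator tRNA carrier that is no part of the eIF2 complex, was called at 0.13 (standard error 0.051, edgeR adjusted p = 0.0452) and lost the call in 7 of 8 fits that left out 1 library, where its log2 value ran from 0.11 to 0.14.

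Expression of the 4 kinases of eIF2 alpha split. Eif2ak2, which encodes the double-stranded RNA sensor PKR, and Eif2ak4, which encodes the amino acid sensor GCN2, were lower in shMCT-1. Eif2ak2 (chromosome 17, 78852564 to 78882573, minus strand) was measured at 36.3 and 44.0 normalised CPM in scramble + IgG, 35.7 and 37.8 in scramble + anti-IL-6R, 28.4 and 28.6 in shMCT-1 + IgG, and 27.4 and 29.0 in shMCT-1 + anti-IL-6R. Every shMCT-1 library lay under the lowest scramble library, and the log2 fold change was -0.44 (standard error 0.072, edgeR adjusted p = 0.000277). Eif2ak4 was at 33.1 to 35.5 normalised CPM in scramble and 26.4 to 29.5 in shMCT-1, by a log2 value of -0.29 (standard error 0.061, edgeR adjusted p = 0.00164). It lies on chromosome 2, and relative to the median of that chromosome its value was 0.084 (edgeR adjusted p = 0.243), with the sign turned. Eif2ak3, which encodes the endoplasmic reticulum kinase PERK, was called higher at 0.23 (standard error 0.075, edgeR adjusted p = 0.0195). That call was lost without replicate 1 of either scramble group (0.21, edgeR adjusted p = 0.0569, and 0.19, edgeR adjusted p = 0.0779) and without replicate 2 of shMCT-1 + anti-IL-6R (0.18, edgeR adjusted p = 0.0614). Eif2ak1, the heme-regulated kinase, was at 43.67 to 44.95 normalised CPM in scramble and 44.13 to 47.16 in shMCT-1 and was not called (log2 fold change 0.054, standard error 0.053, edgeR adjusted p = 0.386), though it was called higher with the length and GC correction, at 0.16 (edgeR adjusted p = 0.0162). Per length these kinases were among the least expressed members, at 2.98 to 10.2 normalised CPM per kb of transcript in scramble.

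Most genes of eIF3, the large scaffold that joins the ribosome to the mRNA, were called higher. Of the 14 genes 10 were called higher and 3 lower, where 35% and 34% of all tested genes were. All 10 were also called higher in both treatments (23.6% of all genes) and lay without overlap above scramble (33% of all genes). Their log2 fold changes ran from 0.27 (Eif3l) to 0.62 (Eif3i), with a group median of 0.34. Most of their calls within anti-IL-6R were lost without replicate 2 of scramble + anti-IL-6R, a fit with 1 library in that group. With 1 library left out, the value of Eif3i ran from 0.52 to 0.96 within IgG and from 0.40 to 0.65 within anti-IL-6R. For Eif3k the ranges were 0.32 to 0.62 and 0.40 to 0.52, and for Eif3m 0.36 to 0.48 and 0.43 to 0.62. Eif3i, a WD-repeat subunit, was measured at 178 and 132 normalised CPM in scramble + IgG, 181 and 169 in scramble + anti-IL-6R, 251 and 260.2 in shMCT-1 + IgG, and 273 and 228 in shMCT-1 + anti-IL-6R. The lowest value was again replicate 2 of scramble + IgG, and the log2 fold change was 0.62 (standard error 0.10, edgeR adjusted p = 0.000206), or 0.52 (edgeR adjusted p = 8.93e-05) without that library. Eif3m was at 81.9 to 93.6 normalised CPM in scramble and 118 to 133 in shMCT-1, with a log2 fold change of 0.47 (standard error 0.067, edgeR adjusted p = 9.21e-05), although the genes of its chromosome 2 were lower as a whole, and Eif3k was at 98.3 to 121 normalised CPM in scramble and 149.9 to 164 in shMCT-1, with a log2 fold change of 0.46 (standard error 0.069, edgeR adjusted p = 0.00016). Eif3e, a subunit known as a site of viral integration in mouse mammary tumors, was measured at 326 and 357 normalised CPM in scramble + IgG, 326 and 320.3 in scramble + anti-IL-6R, 412 and 433 in shMCT-1 + IgG, and 429.8 and 403 in shMCT-1 + anti-IL-6R. No shMCT-1 library fell into the scramble range, and the log2 fold change was 0.34 (standard error 0.056, edgeR adjusted p = 0.000306). Eif3d, Eif3e, Eif3h and Eif3l lie on chromosome 15, whose genes were higher by a median of 0.17, and with that median taken off Eif3l lost its call in the combined fit (0.10, edgeR adjusted p = 0.135). With the median of its own chromosome taken off each gene (chromosome 7 for Eif3f), Eif3d, Eif3e, Eif3f, Eif3h and Eif3l lost their calls within IgG. They also lost them within anti-IL-6R. The correction for transcript length and GC content ended the calls of Eif3b, Eif3d, Eif3g, Eif3h, Eif3k and Eif3l within IgG and those of Eif3g and Eif3h within anti-IL-6R. Eif3d shares 2151 bases of its exons with the antisense gene Gm17638, which had 68 to 137 counts.

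The 3 eIF3 genes called lower were Eif3a, Eif3j1 and Eif3j2. With the length and GC correction Eif3a was no longer called (-0.20, edgeR adjusted p = 0.117), Eif3j2 turned sign (0.069, edgeR adjusted p = 0.477) and Eif3j1 was still called (-0.50, edgeR adjusted p = 2.81e-05). Eif3a, the largest subunit, was measured at 980.0 and 1509.8 normalised CPM in scramble + IgG, 1043 and 1057 in scramble + anti-IL-6R, 850.4 and 817 in shMCT-1 + IgG, and 731 and 929 in shMCT-1 + anti-IL-6R. Replicate 2 of scramble + IgG was far above the other scramble libraries. The log2 fold change of Eif3a was -0.46 (standard error 0.13, edgeR adjusted p = 0.00719), and -0.30 (edgeR adjusted p = 0.00603) without that library. Eif3j1, one of 2 genes for the loosely bound subunit eIF3j, was measured at 141 and 180.4 normalised CPM in scramble + IgG, 148 and 152 in scramble + anti-IL-6R, 87.6 and 87.9 in shMCT-1 + IgG, and 77.1 and 90.6 in shMCT-1 + anti-IL-6R. Its log2 fold change of -0.85 (standard error 0.081, edgeR adjusted p = 5.56e-06) was the lowest of all members, and relative to the median of chromosome 2 it was -0.49 (edgeR adjusted p = 0.000344). Exons of Eif3j1 share 1107 bases with Spg11 on the other strand. Eif3j2 was at 69.9 to 78.6 normalised CPM in scramble and 60.2 to 71.4 in shMCT-1, with a log2 fold change of -0.21 (standard error 0.072, edgeR adjusted p = 0.0235), and lost the call without replicate 2 of scramble + IgG (-0.17, edgeR adjusted p = 0.0534), replicate 1 or 2 of shMCT-1 + IgG (-0.19, edgeR adjusted p = 0.0797, and -0.18, edgeR adjusted p = 0.0748) and replicate 2 of shMCT-1 + anti-IL-6R (-0.19, edgeR adjusted p = 0.0579). Because the 2 eIF3j genes resemble each other, the split of their counts is uncertain. Eif3c, a core subunit, was not called (-0.024, standard error 0.067, edgeR adjusted p = 0.761).

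Per length, the 12 eIF3 genes other than the eIF3j pair differed 5.16- to 6.90-fold from the lowest to the highest within a library. Eif3l was the highest and Eif3m the lowest of the 12 in each of the 8 libraries. Eif3l stood at 440.3 to 462 normalised CPM per kb in scramble and 523 to 569 in shMCT-1, and Eif3m at 63.8 to 72.9 and 91.6 to 104. In scramble the means of Eif3b, Eif3a and Eif3e were 226, 224 and 221 normalised CPM per kb, closer than the spread of Eif3a between libraries. In shMCT-1 they were 299, 162 and 278. The coefficient of variation over the 12 subunits was 50.1% to 53.1% in scramble and 50.8% to 52.2% in shMCT-1.

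**Figure D3:**
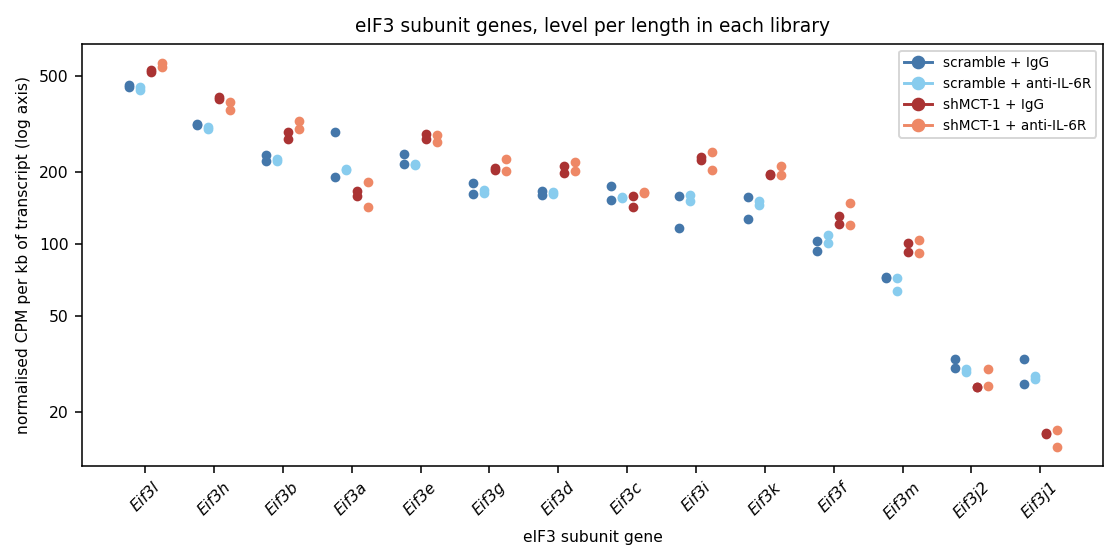
Level of the 14 eIF3 genes in normalised CPM per kb of transcript (log axis), one point per library, ordered by their scramble mean. Eif3l is the highest gene and the eIF3j genes Eif3j1 and Eif3j2 are the lowest, and the shMCT-1 points lie under the scramble points for Eif3a and Eif3j1.

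In the cap-binding group, the cap-binding protein Eif4e and the helicase genes Eif4a1 and Eif4a3 rose while the scaffold gene Eif4g3 fell. Of 10 tested eIF4 genes 6 were called higher and 1 lower. The share called, 70%, is near the 69% of all tested genes (35% higher and 34% lower). Eif4e, the cap-binding protein, was measured at 177 and 206 normalised CPM in scramble + IgG, 172 and 162 in scramble + anti-IL-6R, 231 and 235 in shMCT-1 + IgG, and 224 and 229 in shMCT-1 + anti-IL-6R. Its shMCT-1 libraries were close to each other and above all scramble libraries, with a log2 fold change of 0.36 (standard error 0.064, edgeR adjusted p = 0.000492). Eif4a1, the main RNA helicase of the complex and the second most expressed member per length, was measured at 1367 and 1416 normalised CPM in scramble + IgG, 1366 and 1339 in scramble + anti-IL-6R, 1662 and 1690.3 in shMCT-1 + IgG, and 1749 and 1646 in shMCT-1 + anti-IL-6R. The groups did not overlap, and the log2 fold change was 0.30 (standard error 0.054, edgeR adjusted p = 0.000509). Relative to the median of its chromosome 11, Eif4a1 lost its calls within IgG (0.12, edgeR adjusted p = 0.246) and within anti-IL-6R (0.18, edgeR adjusted p = 0.0843). Eif4e, on chromosome 3, lost its call within IgG relative to the median of that chromosome (0.19, edgeR adjusted p = 0.114). In edgeR's exact test neither gene was called within IgG (adjusted p = 0.059 for Eif4a1 and 0.0552 for Eif4e). Across treatments both were called in every fit. Eif4a3, a related helicase of the exon junction complex, was at 159 to 189 normalised CPM in scramble and 240.1 to 266 in shMCT-1, with a log2 fold change of 0.46 (standard error 0.064, edgeR adjusted p = 8.55e-05). The cofactors Eif4b and Eif4h were higher by 0.21 and 0.24 on the log2 scale, and Eif4e2, a cap-binding repressor, by 0.24.

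Eif4g3, which encodes a scaffold related to eIF4GI, was measured at 202 and 248 normalised CPM in scramble + IgG, 205 and 216 in scramble + anti-IL-6R, 147 and 139 in shMCT-1 + IgG, and 136 and 172 in shMCT-1 + anti-IL-6R. It was lower in each shMCT-1 library, with a log2 fold change of -0.55 (standard error 0.090, edgeR adjusted p = 0.000261) and of -0.47 (edgeR adjusted p = 0.000366) without replicate 2 of scramble + IgG. Eif4g1, the main scaffold, was at 1199.7 to 1395 normalised CPM in scramble and 1100.3 to 1289.9 in shMCT-1 and was not called (-0.12, standard error 0.070, edgeR adjusted p = 0.155). Eif4g2, the scaffold without a binding site for eIF4E, had a log2 value of -0.13 (standard error 0.061, edgeR adjusted p = 0.0817), and its direction depended on the setting. DESeq2 called it lower at -0.14 (DESeq2 adjusted p = 0.0347), as did the chromosome offset at -0.24 (edgeR adjusted p = 0.00487), and the length and GC correction, for which its transcript length is uncertain, called it higher at 0.39 (edgeR adjusted p = 0.000174). Eif4a2, a close relative of Eif4a1, was measured at 215 and 226 normalised CPM in scramble + IgG, 176 and 193 in scramble + anti-IL-6R, 185 and 256 in shMCT-1 + IgG, and 181 and 165 in shMCT-1 + anti-IL-6R. Replicate 2 of shMCT-1 + IgG was the highest library and the groups overlapped, and its log2 fold change was -0.046 (standard error 0.092, edgeR adjusted p = 0.673).

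The genes that restrain eIF4E split as well. Eif4ebp1, which encodes the eIF4E-binding protein 4E-BP1, was measured at 185 and 169 normalised CPM in scramble + IgG, 199 and 189 in scramble + anti-IL-6R, 236 and 232 in shMCT-1 + IgG, and 284 and 220.0 in shMCT-1 + anti-IL-6R. All shMCT-1 libraries were above the scramble libraries, replicate 1 of shMCT-1 + anti-IL-6R being the highest, and the log2 fold change was 0.39 (standard error 0.077, edgeR adjusted p = 0.00101). Eif4ebp2, which encodes 4E-BP2, was at 208 to 246 normalised CPM in scramble and 197 to 214 in shMCT-1, with overlap between the lines. Its log2 fold change of -0.15 (standard error 0.061, edgeR adjusted p = 0.0429) passed the threshold narrowly, and the call was lost in 6 of 8 fits that left out 1 library, where the log2 value ran from -0.20 to -0.13. Eif4enif1, which encodes the eIF4E transporter 4E-T, was not called (-0.11, standard error 0.061, edgeR adjusted p = 0.134), and relative to the median of chromosome 11 it was called lower at -0.26 (edgeR adjusted p = 0.00304).

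Eif5a, which encodes a hypusine-bearing factor that acts mainly in elongation and termination, was the most expressed of 49 members per length (Eif4g2, whose transcript length is uncertain, was not ranked) and one of the most raised. It was measured at 1738 and 1672 normalised CPM in scramble + IgG, 1754 and 1681 in scramble + anti-IL-6R, 2744 and 2616 in shMCT-1 + IgG, and 3062 and 2591 in shMCT-1 + anti-IL-6R. The groups lay far apart, and the log2 fold change was 0.69 (standard error 0.066, edgeR adjusted p = 5.88e-06), or 0.53 (edgeR adjusted p = 4.05e-05) relative to the median of its chromosome 11. Its relative Eif5a2 was at 9.92 to 11.5 normalised CPM in scramble and 10.2 to 11.4 in shMCT-1 and was not called (-0.052, standard error 0.082, edgeR adjusted p = 0.595). Eif6, which keeps the large ribosomal subunit from joining too early, was at 265 to 312 normalised CPM in scramble and 276 to 342 in shMCT-1, with a log2 fold change of 0.039 (standard error 0.070, edgeR adjusted p = 0.632). Relative to the median of chromosome 2, Eif6 was called higher at 0.41 (edgeR adjusted p = 0.000402), and corrected for transcript length and GC content it was called lower at -0.25 (edgeR adjusted p = 0.00161). Eif5a2 was called higher under that correction, at 0.47 (edgeR adjusted p = 0.000387).

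Ratios between related genes were then taken within each library, which frees them from library scaling. The genes of a pair can still differ in transcript length, GC content and chromosome, and the ratios were not refitted with those corrections. With the length and GC correction Eif5a2 and Eif1a were called higher, at 0.47 and 0.26, while Eif5a, Eif3j1, Eif4ebp1, Eif4g3 and Eif1ax kept their calls. For 9 pairs the log2 ratio of counts was compared between the 4 scramble and the 4 shMCT-1 libraries by an exact permutation test, two-sided, whose smallest possible p is 0.0286. In 5 pairs that value was reached, each with an adjusted p of 0.0514 over the 9 pairs, and none passed 0.05. The log2 ratio of Eif5a to Eif5a2 was 7.29 ± 0.12 in scramble and 8.02 ± 0.16 in shMCT-1 (SD, n = 4 each), a difference of 0.73. For Eif3j1 to Eif3j2 it was 1.08 ± 0.10 in scramble and 0.44 ± 0.22 in shMCT-1 (SD, n = 4 each), a difference of -0.64. Eif4ebp1 to Eif4ebp2 stood at -0.31 ± 0.026 in scramble and 0.22 ± 0.18 in shMCT-1 (SD, n = 4 each), so that Eif4ebp1 had fewer counts than Eif4ebp2 in each scramble library and more in each shMCT-1 library. Eif4g1 to Eif4g3 moved by 0.44 and Eif1a to Eif1ax by -0.31, both without overlap. In Eif4a1 to Eif4a2, Eif4e to Eif4e2, Eif1 to Eif1b and Eif4g1 to Eif4g2 the lines overlapped, with differences of 0.35, 0.13, -0.22 and 0.01 and exact permutation p of 0.0857, 0.0571, 0.257 and 0.829. In Eif1 to Eif1b the overlap came from replicate 2 of scramble + IgG alone.

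**Figure D4:**
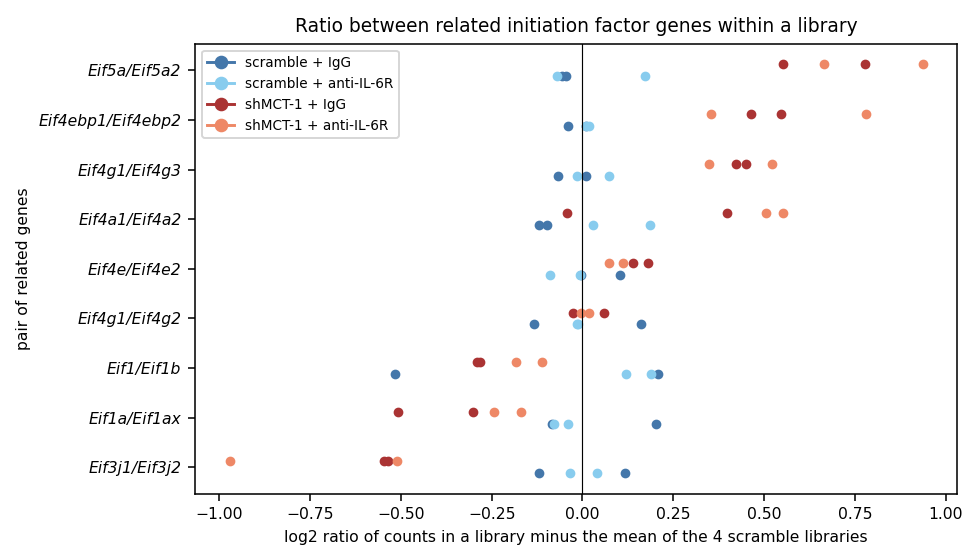
Log2 ratio of counts between 9 pairs of related genes in each library, less the mean of the 4 scramble libraries. The shMCT-1 points lie apart from the scramble points in 5 pairs, and for Eif1 to Eif1b replicate 2 of scramble + IgG lies far under the other scramble libraries.

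Position and transcript length moved with these results and are given beside them. On chromosome 2, 3 of 5 tested members were called lower and 1 higher, and on chromosome 12 2 of 3 were lower. On chromosome 15 all 5 were higher, and on chromosome 11 4 of 5, with chromosome medians of 0.17 and 0.15. Over all chromosomes 35% of the tested genes were called higher and 34% lower. The shares called on each of these chromosomes are not given here, so the members were not compared with their neighbours. When the median of its chromosome was taken off each gene, 23 members were called higher and 8 lower, with 8474 of all 12704 tested genes called. Eif1ad, Eif2a, Eif2ak3, Eif2ak4, Eif2s1, Eif2s2, Eif3j2, Eif3l, Eif4b, Eif4e2 and Eif5b lost their calls. Over the 50 members, the log2 fold change had a Spearman correlation of -0.63 with transcript length and 0.36 with GC content, and over 12695 tested genes the values were -0.32 and 0.28. Genes share the same 8 libraries, so these are descriptions. The deviation of a library from the median of its line, over the 50 members, also ran with length. Spearman values for replicates 1 and 2 were -0.27 and 0.315 in scramble + IgG and -0.445 and 0.595 in scramble + anti-IL-6R. They were 0.182 and -0.161 in shMCT-1 + IgG and -0.635 and 0.699 in shMCT-1 + anti-IL-6R. The 28 members called higher had a median transcript of 1969.5 bases and the 10 called lower one of 4719 bases. A correction for length and GC content was added after the values were seen. It gave 28 members higher and 8 lower, with 8423 of all 12704 tested genes called, and kept only 30 of the 38 calls. Under it Eif2s1 (-0.11, edgeR adjusted p = 0.189), Eif3a (-0.20, edgeR adjusted p = 0.117) and Eif3g (0.023, edgeR adjusted p = 0.796) were no longer called, nor were Eif3j2, Eif3l, Eif4e2, Eif4ebp2 and Eif4h, while Eif1a, Eif2ak1, Eif4g2 and Eif5a2 were newly called higher and Eif2b4 and Eif6 newly called lower. Of the 38 calls, 23 were made under each alternative fitted, among them Eif1, Eif1b, Eif5, Eif5a, Eif3i, Eif3j1, Eif4e, Eif4g3, Eif4ebp1 and Eif2ak2.

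**Figure D5:**
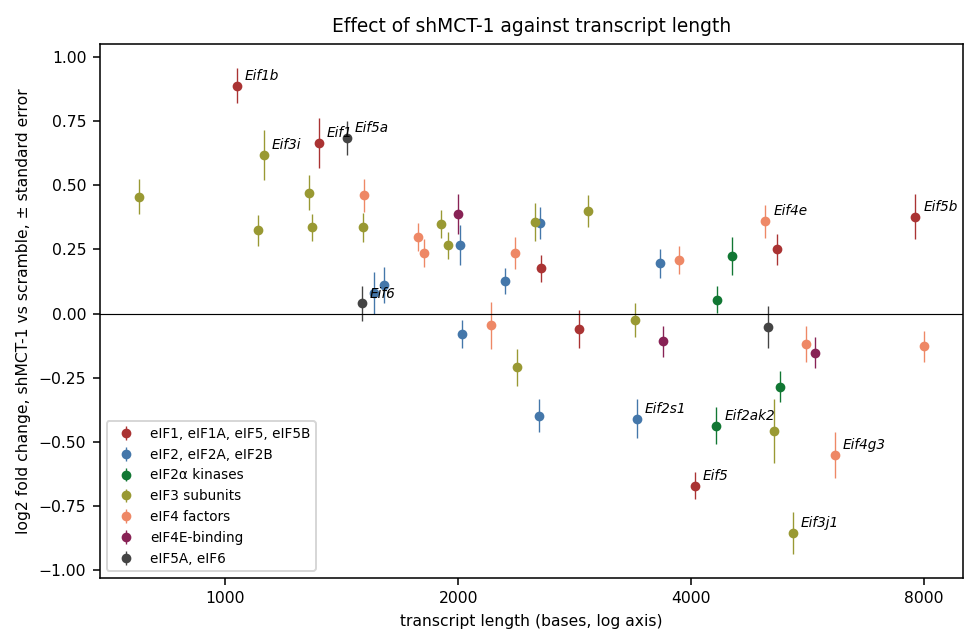
Log2 fold change of shMCT-1 vs. scramble ± standard error against transcript length (log axis) for the 50 tested members, coloured by role. Short transcripts such as Eif1b lie higher than long ones such as Eif3j1, with Eif5b and Eif4e as long transcripts above 0.

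Promoter sequence was also looked at, for members called higher, called lower and not called. For 41 of the 50 tested members RefSeq gave a start site, and the 250 bases before it were searched on both strands for the E-box CACGTG, which the MYC and TFE families of factors bind, and for the ETS motif CCGGAAGT. The E-box was found in 8 of the 41 (19.5%) and in 8.66% of 9065 tested genes with a promoter, or 8.71% of those called higher and 8.45% of those called lower. It was present in 6 of 24 members called higher, in 0 of 9 called lower and in 2 of 8 not called. The ETS motif was found in 3 of 41 (7.32%) against 6.72% of all. A match is only a string of letters, and no binding was measured. The E-box promoters of 3 genes that overlap no annotated exon are shown, with the E-box in capitals, 5′ to 3′ along the gene (GRCm38.p6). They belong to Eif5a (chr11:69921387-69921636, minus strand), Eif4a1 (chr11:69672424-69672673, minus strand) and Eif3f (chr7:108934165-108934414, plus strand), which were all called higher, and the E-box begins 74, 189 and 68 bases before the start.
Eif5a: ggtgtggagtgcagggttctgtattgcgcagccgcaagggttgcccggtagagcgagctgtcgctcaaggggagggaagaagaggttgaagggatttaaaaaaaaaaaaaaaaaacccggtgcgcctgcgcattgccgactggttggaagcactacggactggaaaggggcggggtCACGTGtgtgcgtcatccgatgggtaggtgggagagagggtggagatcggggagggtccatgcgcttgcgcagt
Eif4a1: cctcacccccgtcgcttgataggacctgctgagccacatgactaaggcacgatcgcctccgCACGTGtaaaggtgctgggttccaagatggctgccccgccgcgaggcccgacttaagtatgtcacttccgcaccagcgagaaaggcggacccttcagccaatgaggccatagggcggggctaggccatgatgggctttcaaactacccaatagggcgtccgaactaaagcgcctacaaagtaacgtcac
Eif3f: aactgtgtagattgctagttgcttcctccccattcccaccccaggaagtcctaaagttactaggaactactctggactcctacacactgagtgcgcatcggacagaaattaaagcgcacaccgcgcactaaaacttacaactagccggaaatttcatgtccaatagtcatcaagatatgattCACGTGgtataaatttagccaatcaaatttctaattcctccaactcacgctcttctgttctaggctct

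Neighbouring steps of translation were described with 3 lists of other genes, to be read beside the 35% of all tested genes called higher and the 34% called lower. Values of these genes under the chromosome offset and the length and GC correction are not given here. Over all tested genes the log2 fold change had a Spearman correlation of -0.32 with transcript length, and its part in these values was not tested. Of 13 elongation, termination and recycling genes 11 were tested, 7 were called higher and 1 lower. Eef1a1, which delivers tRNA to the ribosome, was at 6957 to 7157 normalised CPM in scramble and 10908 to 11843 in shMCT-1, with a log2 fold change of 0.68 (standard error 0.055, edgeR adjusted p = 1.84e-06), and Eef1b2, its exchange factor, had 0.65 (standard error 0.064, edgeR adjusted p = 6.69e-06). Abce1, the ribosome recycling ATPase, was the one that fell, with a log2 value of -0.31 (standard error 0.062, edgeR adjusted p = 0.00113). Among 20 regulators of eIF4F and mTOR, 3 were higher and 7 lower. Mknk2, a kinase of eIF4E, had a log2 fold change of 0.61 (standard error 0.061, edgeR adjusted p = 7.9e-06). Deptor, an inhibitor of mTOR, was at 122 to 134 normalised CPM in scramble and 11.0 to 19.1 in shMCT-1, with -2.98 (standard error 0.14, edgeR adjusted p = 3.98e-08), and Tsc1, a subunit of the complex that restrains mTOR, had -0.93 (standard error 0.063, edgeR adjusted p = 5.5e-07) on the lowered chromosome 2. Mtor, the kinase itself, was also lower, at -0.53 (standard error 0.082, edgeR adjusted p = 0.00018), as were its partner Rictor at -0.75 (standard error 0.11, edgeR adjusted p = 0.000108) and its substrate kinase Rps6kb1 at -0.28 (standard error 0.078, edgeR adjusted p = 0.00736). The other genes called lower were Gigyf2 at -0.90 (standard error 0.097, edgeR adjusted p = 1.33e-05) and Paip1 at -0.18 (standard error 0.057, edgeR adjusted p = 0.0154). Rps6kb1 was not called within anti-IL-6R, and Paip1 was called in neither treatment alone. Rptor (-0.13), Mlst8 (-0.20) and Rheb (0.021) of the same list were not called (edgeR adjusted p = 0.0639, 0.0629 and 0.797). These genes, from Mtor on, were named after their values were seen. Named in the same way, the other genes called higher were Paip2 at 0.19 (standard error 0.069, edgeR adjusted p = 0.0287) and Tsc2 at 0.14 (standard error 0.057, edgeR adjusted p = 0.0429). Tsc2 is the partner of Tsc1 in its complex, and neither Paip2 nor Tsc2 was called within a single treatment. In the list of 12 genes around the phosphorylation of eIF2, 7 were higher and 1 lower. Nck2, an adaptor, had 0.65 (standard error 0.063, edgeR adjusted p = 5.96e-06) and Ddit3, the stress factor CHOP, 0.52 (standard error 0.10, edgeR adjusted p = 0.000648). The gene called lower was Ppp1cb, a catalytic subunit of the phosphatase, at -0.43 (standard error 0.056, edgeR adjusted p = 4.91e-05). The catalytic subunits Ppp1ca and Ppp1cc were called higher, at 0.29 (edgeR adjusted p = 0.00128) and 0.40 (edgeR adjusted p = 3.65e-05). So was the regulatory subunit Ppp1r15b, at 0.19 (edgeR adjusted p = 0.0128), and these higher subunits were named after their values were seen.

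No change of an initiation factor gene with anti-IL-6R was detected in either line. No member, and none of the 12704 genes, had an adjusted p under 0.05 for anti-IL-6R vs. IgG in scramble, in shMCT-1 or across both, nor in the interaction of line and treatment (0% in each), by edgeR's quasi-likelihood test. At an unadjusted p under 0.05 there were 0 members in scramble (1.31% of all genes), 2 in shMCT-1 (3.98%), 2 across both (2.79%) and 0 in the interaction (2.48%), and DESeq2 called 0 members in each. The median absolute log2 fold change of the 50 members was 0.047 for anti-IL-6R across both lines and 0.29 for shMCT-1 across both treatments. Eif4a2, whose libraries are given above, had the lowest p in shMCT-1, at a log2 value of -0.35 (standard error 0.14, edgeR adjusted p = 1), and across both lines, at -0.30 (standard error 0.092, edgeR adjusted p = 0.995). Each of its 2 anti-IL-6R libraries lay under both IgG libraries of the same line. Eif2b1 was next, at 0.25 (standard error 0.11, edgeR adjusted p = 1) in shMCT-1 and 0.17 (standard error 0.076, edgeR adjusted p = 0.995) across both. In scramble the lowest p were those of Eif4e (-0.20, standard error 0.091, edgeR adjusted p = 1) and Eif4a2 (-0.26, standard error 0.14, edgeR adjusted p = 1). For the interaction they were those of Eif3j2 (0.23, standard error 0.14, edgeR adjusted p = 1) and Eif2b3 (0.25, standard error 0.16, edgeR adjusted p = 1).

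The remaining 4 members were not tested, since they did not exceed 1 CPM in 2 libraries. Eif4ebp3, the third eIF4E-binding protein, had 2 and 4 counts in scramble + IgG, 18 and 18 in scramble + anti-IL-6R, 10 and 5 in shMCT-1 + IgG, and 13 and 5 in shMCT-1 + anti-IL-6R. Eif2s3y, the Y-linked copy of the gamma subunit of eIF2, had 0 counts in each library, as did the other Y-linked genes Ddx3y, Kdm5d and Uty. Eif4e1b and Eif4e3, relatives of the cap-binding protein, also had 0 counts in each library. A count of 0 allows up to 3 counts, and these limits cover counting error only.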

How the data were processed

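RNA of 4T1 cells was sequenced by the authors in 8 poly(A)-selected libraries, 4 groups of 2. Reads were trimmed with cutadapt 1.18, aligned with STAR 2.7.0d to mm10 with GENCODE M19 and counted with RSEM, and the authors deposited expected counts per gene, without normalization. Of the values above 0, 29.6% were not whole, and all were rounded here. Reads shared between related genes or pseudogenes were split by RSEM's estimates, and the part of this in the values was not tested. Symbols and coordinates come from GENCODE M21 (54409 of 54532 identifiers matched without version). Totals of 19839255 to 33063535 counts put 1 CPM at 19.8 to 33.1 counts.

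Genes above 1 CPM in at least 2 libraries (12704) were fitted in edgeR 4.0.16 under R 4.3.3 with TMM factors and quasi-likelihood tests, as 4 group means and as an additive model of line and treatment. Benjamini-Hochberg adjustment ran over all tested genes, with 0.05 as the threshold. Standard errors were derived from the F statistic. The test was checked on simulated counts. Alternatives were DESeq2 1.42.0, RLE factors, no filter, filterByExpr, an unadjusted p, edgeR's exact test, a replicate block, only the libraries compared, a chromosome offset and leaving out each library. A loess correction for length and GC content (span 0.3) was added later. Pair ratios used counts + 0.5. Length is that of the longest complete principal transcript, without which the longest complete coding one was taken.

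The members and lists were chosen with earlier results of these data known. Genes were named by rule, which took up to 3 per role and direction that were called in both treatments without overlap of the lines and ranked by fold change, a fixed set of core factors, the 2 lowest p in each antibody comparison and, from each list, up to 2 per direction. Eif2b2, Eif5b and the other members named beside them were added for their values or completeness.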

Additional observations from a re-analysis of the deposited data

How the results depend on the processing

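Counts of members called across treatments (28 higher, 10 lower) stayed within 1.5 times under DESeq2, RLE size factors, no filter, filterByExpr, an unadjusted p, edgeR's exact test, the chromosome offset and the length and GC correction, and ranged from 26 to 28 higher and from 8 to 9 lower when each library was left out. Within IgG, leaving out 1 library, where the lone library of a group is assumed to vary like the others, gave 10 to 19 higher and 6 to 10 lower, with 10 higher without either shMCT-1 + IgG replicate. Within anti-IL-6R the ranges were 8 to 24 and 2 to 9, with 14 higher without scramble + anti-IL-6R replicate 1, 8 higher and 2 lower without its replicate 2, and 3 lower without shMCT-1 + anti-IL-6R replicate 1. The length and GC correction gave 4 lower there in place of 7. For anti-IL-6R, an unadjusted p gave 2 members in shMCT-1 and 2 across both lines, and no filter gave 1 across both lines, Eif4a2 (-0.28, edgeR adjusted p = 0.0475). Fitting only the 4 libraries compared gave 15 higher and 9 lower within IgG and 24 and 8 within anti-IL-6R. The paralog count of 0 of 9 pairs was the same with a pseudocount of 5. Paired by replicate number these ratios cannot reach a p under 0.125, nor under 0.0571 with 1 library left out, so those fits say nothing of stability.

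The fit with the replicate number as a block gave 28 higher and 10 lower across treatments, 20 and 9 within IgG and 22 and 7 within anti-IL-6R, and it changed no call of a member. Deviations of same-numbered libraries correlated by -0.08 to 0.106 between groups. Whether the numbers pair the samples is not given in the sources used here.

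Signs turned for these log2 values of shMCT-1 vs. scramble. Under the chromosome offset Eif2ak4 was 0.084 across treatments, 0.10 within IgG and 0.054 within anti-IL-6R, Eif2s1 was 0.011 within anti-IL-6R, and Eif1a was 0.0021 across treatments. Under the length and GC correction, across treatments, Eif2b2 was -0.16, Eif3c 0.026, Eif3j2 0.069, Eif4a2 0.067, Eif4g2 0.39, Eif5a2 0.47, Eif6 -0.25 and Eif1a 0.26. Of these, Eif4g2, Eif5a2 and Eif1a were then called higher and Eif6 lower. The length of Eif4g2 is uncertain, as its principal transcript is not in the basic annotation set. With libraries left out, values crossed 0 for Eif3c (-0.051 to 0.030), Eif4a2 (-0.16 to 0.033), Eif6 (-0.015 to 0.081) and Eif1a (-0.098 to 0.017). The cause was not tested.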
